A study of Mus musculus with 14 samples.

Results

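Imprinted genes are expressed mainly from the copy inherited from 1 parent, and a connected group of them acts on growth before and after birth. The 10 such genes described here were H19, Igf2, Dlk1, Meg3, Grb10, Cdkn1c, Plagl1, Peg3, Mest and Ndn, taken by symbol from the 52636 Ensembl mouse genes of the deposited expression table. Each symbol matched 1 gene, and 8 of the 10 had at least 1 CPM (reads of a gene scaled to the same total in every library) in at least 2 libraries. Those 8 were entered in the model. Meg3 and Ndn were below that level and are given by their values only. The genes were chosen by name with earlier CPM levels and differences of these same libraries in view, and which comparison led to each is not recorded. All their levels and differences are therefore given as a description, with standard errors and no p-value.

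As background, H19 and Igf2 lie next to each other on mouse chromosome 7 and share enhancers. The insulator protein CTCF binds the unmethylated maternal control region between them, so that H19, a long noncoding RNA, is read from the maternal copy and Igf2, a secreted growth factor, from the paternal copy. Dlk1, a transmembrane relative of the Notch ligands, is paternally expressed from a cluster on chromosome 12 that also holds the maternally expressed noncoding RNA Meg3. Grb10, an adaptor that restrains signalling from the insulin and IGF receptors, and Cdkn1c, the cyclin-dependent kinase inhibitor p57, hold growth back, while the zinc finger protein Plagl1 is known as a regulator of several other imprinted genes. These genes are high in embryonic tissues and fall after birth in most of them.

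The cells were transformed mouse embryonic fibroblasts (tMEF) in which the mouse telomere protein TRF1 had been substituted by that of the naked mole rat (NMR), a rodent that tolerates low oxygen. The question was how NMR TRF1 and its mutants act under low oxygen. The substitutions were Glu69Lys, Val70Ala and Ala75Thr in GLAD, Ala105Thr in TIN, and all of them in the double mutant, which the labels call GLAD/TIN. The 3 mutants were grown in atmospheric oxygen (normoxia) and in 1% O2 (hypoxia), and cells with the wild-type NMR protein in normoxia, giving 7 groups of 2 libraries named A and B. All cells grew in medium with 10% fetal calf serum and antibiotics. Hypoxic cells with the wild-type protein were not analysed here. The labels do not say whether a mutant was 1 clone or several, nor whether libraries A and B came from separate cultures, so the p-values and standard errors measure only the spread between these libraries, and a substitution and a cell line cannot be told apart.

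The libraries held an estimated 11920000 to 15020000 counted reads. A read was worth 0.0665 to 0.0839 CPM. A gene listed at 0 had no counted read. From counting error alone, its expected count may still be up to 3 reads, worth 0.200 to 0.252 CPM. The titles give NMR TRF1 for the wild-type libraries, but the names of those libraries say Mouse and are built differently from the rest, so library naming and wild-type status cannot be told apart. Terf1, the mouse gene of TRF1, read 130 to 186 CPM in the 6 mutant libraries in normoxia, 86.4 to 113 CPM in the 6 in hypoxia and 85.2 and 104 CPM in the wild type, and a count per gene cannot tell mouse from NMR reads, so this does not check the labels. Of 9 fibroblast markers 8 passed the filter, with summed levels of 7434 to 9823 CPM in the mutants in normoxia, 7626 to 11878 CPM in hypoxia and 14997 to 15494 CPM in the wild type, while Thy1 stayed at or under 0.2 CPM. Some markers of other cells were near 0, with Ptprc, Myod1 and Adipoq at or under 0.1 CPM, Cdh1 and Epcam at or under 0.5 CPM, and Zfp42 at 0 in all 14 libraries. Others of the same lists were read throughout, with myeloid Csf1r at 15.4 to 28.3 CPM and Cd68 at 7.05 to 45.2 CPM, smooth muscle Acta2 at 43.1 to 219.7 CPM and Tagln at 14.8 to 121 CPM, and adipocyte Fabp4 at 12.3 to 60.7 CPM. All 4 neural markers passed the filter, among them Nes at 30.3 to 110.2 CPM, Tubb3 at 4.40 to 60.3 CPM and Sox2 at 2.10 to 40.0 CPM. Of the 5 epithelial markers 2 passed the filter, and their sum was 1.55 to 9.05 CPM in the mutants in normoxia, 16.3 to 62.4 CPM in hypoxia and 2.35 to 3.70 CPM in the wild type, mostly from Krt19. In bulk RNA, fewer cells expressing a gene and less RNA per cell cannot be told apart, and the counts sum both parental copies.

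RefSeq promoter windows (GRCm38.p6) of 250 bases before a transcript start were available for 8 of the 10 genes, 15 windows in all. They were searched on both strands for ACGTG and GCGTG, the core letters bound by the hypoxia-inducible factor HIF, and for GGGGCCCC, a core bound by PLAGL1. Of 32851 promoter windows of the same length, 38.6% held ACGTG or GCGTG, 16.6% held ACGTG and 0.889% held GGGGCCCC, and a match is only a run of letters. Of the sequences below, Dlk1 is shown because it had the largest differences between conditions, Plagl1 because it holds ACGTG on both strands, and Mest because its windows held no match. The capitals mark the matched letters.
Dlk1, chr12:109452573-109452822, plus strand: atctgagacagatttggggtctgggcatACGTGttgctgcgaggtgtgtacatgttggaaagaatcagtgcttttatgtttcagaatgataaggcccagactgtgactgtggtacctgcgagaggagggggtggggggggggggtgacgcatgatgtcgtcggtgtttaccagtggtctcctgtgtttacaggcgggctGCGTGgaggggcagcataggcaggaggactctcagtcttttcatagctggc
Plagl1, chr10:13090582-13090690, plus strand: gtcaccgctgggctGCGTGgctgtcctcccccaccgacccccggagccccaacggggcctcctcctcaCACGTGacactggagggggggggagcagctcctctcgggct
Mest, chr6:30737800-30738049, plus strand: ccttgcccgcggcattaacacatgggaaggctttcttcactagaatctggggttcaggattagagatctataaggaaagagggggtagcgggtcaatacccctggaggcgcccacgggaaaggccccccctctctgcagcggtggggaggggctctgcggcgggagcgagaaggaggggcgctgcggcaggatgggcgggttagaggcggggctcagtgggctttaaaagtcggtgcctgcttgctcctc

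In Dlk1 the ACGTG starts 222 bases and the GCGTG 51 bases before the transcript start, both on the strand of the gene. The Plagl1 stretch is the first 109 bases of its window, up to the first base in it that is annotated as exon, and it lies downstream of another annotated start of the gene. Its CACGTG reads as ACGTG on both strands, the 2 matches overlapping, and a GCGTG starts 236 bases before the start. A further GCGTG at 99 bases lies outside the printed stretch. The Peg3 window held GGGGCCCC 201 bases and GCGTG 106 bases before the start. Grb10 held 2 GCGTG on the opposite strand in 1 window, Igf2 held an ACGTG on the opposite strand in 1 window, and Ndn held 1 GCGTG. The 3 windows of Mest and the 2 of Meg3 held none of these letters.

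Levels differed widely between the 10 genes. Per kilobase of annotated exon, the mean over the 14 libraries was 10.7 CPM for Grb10, 4.63 for Plagl1, 2.62 for Igf2, 1.70 for Mest, 1.42 for H19, 1.05 for Dlk1 and 0.933 for Cdkn1c. Peg3 stood at 0.0922, Ndn at 0.0280 and Meg3 at 0.00118 CPM per kilobase. The growth-restraining adaptor Grb10 was therefore the most abundant per length and the noncoding RNA Meg3 the least. Dlk1 spread most across the groups, its highest and lowest group means lying 5.44 apart on the log2 scale against a spread between libraries of 0.17 (SD). H19 spread over 4.18 (SD 0.21), Igf2 over 3.67 (SD 0.08), Mest over 2.63 (SD 0.22), Cdkn1c over 2.34 (SD 0.24), Plagl1 over 2.16 (SD 0.34) and Peg3 over 2.08 (SD 0.26). Grb10 varied least, over 0.99 (SD 0.10). These log2 values, and the log2 differences below, are of scaled CPM with 0.5 CPM added, which understates changes of low genes. A difference is said to be called, or to pass the threshold, where its p in the limma model, adjusted over all genes tested, is under 0.05. The genes were chosen with these libraries in view, so for them a call only sorts the differences and is not independent evidence.

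**Figure D1:**
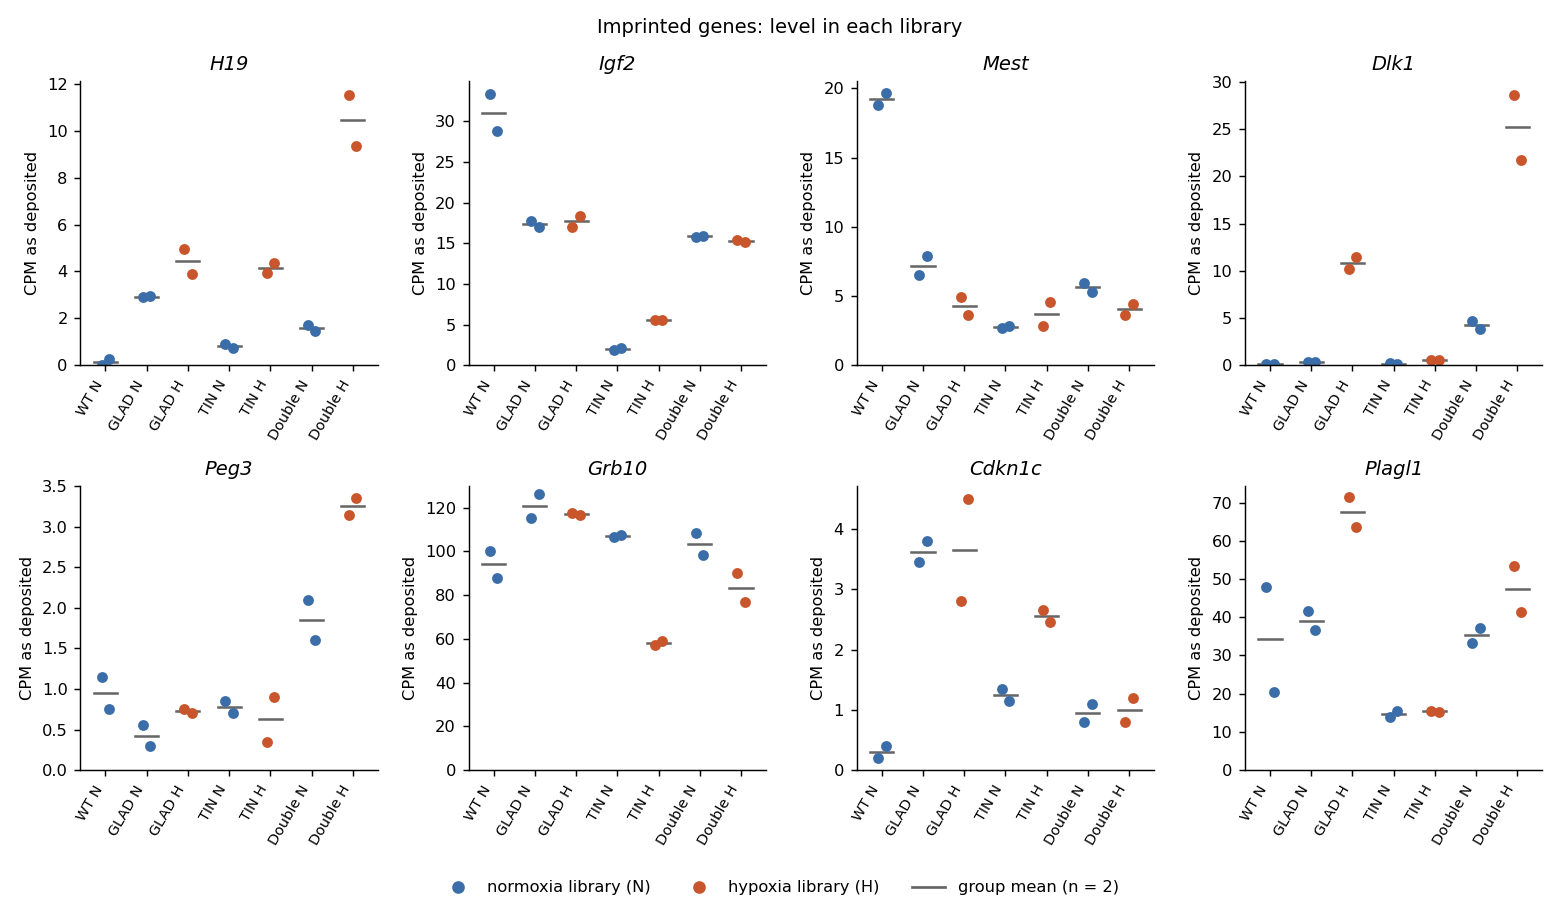
Level of each of the 8 genes that passed the filter, in deposited CPM (linear axis, own scale per gene), for every library; blue points are normoxia (N), orange points hypoxia (H), and the grey line is the mean of the 2 libraries of a group. H19 and Dlk1 are highest in the double mutant in hypoxia, Igf2 and Mest in the wild type, and Grb10 is lowest in TIN in hypoxia.

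H19 (ENSMUSG00000000031, GRCm38 chromosome 7, 142575529 to 142578143, minus strand) was nearly silent in the wild type, with 0 and 0.25 CPM in libraries A and B, or 0 and 3 reads. In normoxia it read 0.899 and 0.75 CPM in TIN, 1.70 and 1.45 CPM in the double mutant and 2.90 and 2.95 CPM in GLAD. In hypoxia it read 3.95 and 4.35 CPM in TIN, 4.95 and 3.90 CPM in GLAD and 11.5 and 9.35 CPM in the double mutant. Every mutant library was thus above both wild-type libraries, and every hypoxia library was above every normoxia library. In the order of group means only TIN and GLAD in hypoxia overlapped. The log2 difference of hypoxia from normoxia was 2.44 ± 0.22 in the double mutant, 1.82 ± 0.22 in TIN and 0.54 ± 0.22 in GLAD (± standard error, 2 libraries a group). The GLAD value lost its call without any 1 of the 4 GLAD libraries, the 4 TIN libraries or the 2 double-mutant libraries in normoxia, and also with 0.1 CPM added, without a filter, with CPM as deposited and with the library letter as a block. In reads per depth this was 6.73 times (95% exact interval 4.80 to 9.68, counting error only), 5.00 times (3.14 to 8.32) and 1.52 times (1.15 to 2.03). Against the 3 reads of the wild type, the ratio of reads was 25.7 (8.49 to 127) for GLAD, 13.7 (4.35 to 69.3) for the double mutant and 7.24 (2.18 to 37.8) for TIN. The exons of H19 also hold the microRNA gene Mir675 over 84 bases and, on the opposite strand, the small RNA genes Gm27483 and Gm27786, each at or under 1.10 CPM. The strand setting of the counting is not given in the sources used here.

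Igf2 (ENSMUSG00000048583, chromosome 7, 142650766 to 142666816, minus strand) followed another order. It was highest in the wild type, at 33.4 and 28.8 CPM, and lowest in TIN in normoxia, at 1.90 and 2.15 CPM. GLAD read 17.7 and 17.0 CPM in normoxia and 17.0 and 18.4 CPM in hypoxia, and the double mutant 15.7 and 15.9 CPM in normoxia and 15.4 and 15.2 CPM in hypoxia. In TIN it rose with hypoxia to 5.50 CPM in both libraries, still below every GLAD, double-mutant and wild-type library. The log2 difference of hypoxia from normoxia was 1.26 ± 0.13 in TIN, 0.06 ± 0.13 in GLAD and -0.00 ± 0.13 in the double mutant. The growth factor RNA was therefore 3.67 ± 0.13 lower in TIN than in the wild type on the log2 scale, 0.89 ± 0.13 lower in GLAD and 0.98 ± 0.13 lower in the double mutant. Igf2 shares 98 exon bases with the antisense gene Igf2os, which read at most 0.55 CPM. On the same strand it shares 3596 of its 5723 exon bases with Gm49394, which has no level in the deposited table and is not analysed here.

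H19 and Igf2 are written from opposite parental copies of the same domain, so their balance was set out for each library. H19 made up 0 and 0.861% of the summed H19 and Igf2 CPM in the wild type. In normoxia the share was 9.74 and 8.33% in the double mutant, 14.1 and 14.7% in GLAD and 32.1 and 25.9% in TIN. In hypoxia it was 22.5 and 17.5% in GLAD, 41.8 and 44.2% in TIN and 42.8 and 38.1% in the double mutant. Both hypoxia libraries stood above both normoxia libraries in each of the 3 mutants. The share came from different genes in different groups. In the double mutant its rise went with more H19, while in TIN in normoxia a high share went with the lowest Igf2 of all groups. Over the 7 group means H19 and Igf2 had a Pearson r of -0.01, given as a description.

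**Figure D2:**
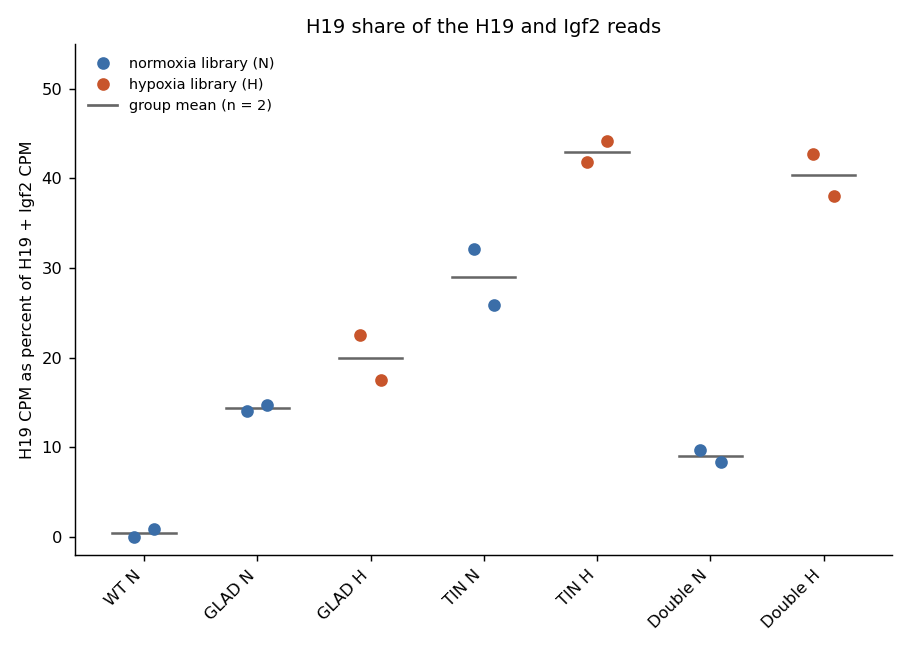
H19 CPM as a percent of the sum of H19 and Igf2 CPM (vertical axis, linear) in each library, by group; blue points are normoxia, orange points hypoxia, and the grey line is the group mean of 2 libraries. The wild type sits at 0 and 0.861%, and the double mutant moves from 9.74 and 8.33% in normoxia to 42.8 and 38.1% in hypoxia.

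Dlk1 (ENSMUSG00000040856, chromosome 12, 109452823 to 109463336, plus strand) was close to the detection limit in 3 of the 4 normoxia groups. It read 0.1 and 0.1 CPM in the wild type (1 read each), 0.25 and 0.1 CPM in TIN (3 and 1 reads) and 0.3 and 0.35 CPM in GLAD (4 and 5 reads). The double mutant in normoxia stood apart at 4.65 and 3.80 CPM. In hypoxia Dlk1 read 10.1 and 11.5 CPM in GLAD, 28.7 and 21.7 CPM in the double mutant, and only 0.6 and 0.55 CPM in TIN (7 reads each). The log2 difference of hypoxia from normoxia was 3.78 ± 0.21 in GLAD, 2.48 ± 0.21 in the double mutant and 0.68 ± 0.21 in TIN. The ratio of reads was 35.6 (95% exact interval 18.5 to 78.7) in GLAD, 6.00 (4.88 to 7.45) in the double mutant and 3.60 (1.13 to 15.0) in TIN, where it rests on 4 reads in normoxia and lost its call without TIN library B of normoxia or A of hypoxia and in the fit of the compared groups only. The double mutant had 55.8 (15.1 to 467) times the reads of the wild type, which rest on 2 reads in all. It also had 14.0 (7.11 to 31.5) times those of GLAD in normoxia. Among GLAD, TIN and the wild type in normoxia the intervals of these ratios included 1. The order of the group means was wild type, TIN, GLAD, TIN in hypoxia, double mutant, GLAD in hypoxia and double mutant in hypoxia. Only the wild type and TIN in normoxia overlapped among neighbours.

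Meg3 (ENSMUSG00000021268, chromosome 12, 109541001 to 109571726, plus strand), which shares the imprinted domain with Dlk1, was at 0 in 12 of the 14 libraries. It had 1 read (0.1 CPM) in GLAD library B in normoxia and 2 reads (0.2 CPM) in double-mutant library B in hypoxia. No difference of Meg3 was detectable at this depth, including in the groups where Dlk1 was high.

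Grb10 (ENSMUSG00000020176, chromosome 11, 11930508 to 12038683, minus strand) stood between 57.3 and 126 CPM in all libraries. It read 100.2 and 87.8 CPM in the wild type, 115 and 126 CPM in GLAD, 107 and 108 CPM in TIN and, for the double mutant, 108 and 98.2 CPM in normoxia. In hypoxia it was 117 CPM in both GLAD libraries, 57.3 and 59.2 CPM in TIN and 90.0 and 76.9 CPM in the double mutant. TIN in hypoxia lay below every other library, while neighbouring groups between the double mutant in hypoxia and TIN in normoxia overlapped. Grb10 fell with hypoxia by 0.86 ± 0.09 in TIN and by 0.26 ± 0.09 in the double mutant on the log2 scale, and in GLAD the difference was -0.01 ± 0.09. Without double-mutant library B in hypoxia the value for that mutant was -0.12 and no longer passed the threshold, and neither did it without its library A in normoxia or without a filter.

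Cdkn1c (ENSMUSG00000037664, chromosome 7, 143458339 to 143461050, minus strand) was lowest in the wild type, at 0.2 and 0.4 CPM. In normoxia it read 3.45 and 3.80 CPM in GLAD, 1.35 and 1.15 CPM in TIN and 0.8 and 1.10 CPM in the double mutant. In hypoxia it read 2.80 and 4.50 CPM in GLAD, 2.65 and 2.45 CPM in TIN and 0.8 and 1.20 CPM in the double mutant. The inhibitor p57 was thus lowest in the wild type and, at either oxygen level, highest in GLAD. The log2 difference of hypoxia from normoxia was 0.81 ± 0.24 in TIN, 0.01 ± 0.24 in GLAD and 0.07 ± 0.24 in the double mutant, and the call in TIN was lost without its library B in normoxia or its library A in hypoxia. GLAD had 13.6 (6.40 to 34.8) times the reads of the wild type, which had 7. Cdkn1c shares 625 of its 2039 exon bases with the antisense gene Gm44732, which read 0.1 to 2.35 CPM, and without a stated strand setting reads there cannot be told apart.

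Plagl1 (ENSMUSG00000019817, chromosome 10, 13060504 to 13131694, plus strand) was lowest in TIN, at 13.9 and 15.4 CPM in normoxia and 15.6 and 15.2 CPM in hypoxia. GLAD read 41.5 and 36.7 CPM in normoxia and 71.5 and 63.6 CPM in hypoxia, and the double mutant 33.2 and 37.3 CPM and then 53.3 and 41.4 CPM. The wild-type libraries stood far apart, at 47.9 and 20.5 CPM, spanning the normoxia values of GLAD and the double mutant. The log2 difference of hypoxia from normoxia was 0.81 ± 0.23 in GLAD, 0.46 ± 0.23 in the double mutant and 0.08 ± 0.23 in TIN. Only the GLAD difference passed the threshold, and not without its library B in normoxia, its library A in hypoxia or the filter. Against the wild type, TIN was 1.10 ± 0.23 lower on the log2 scale, or 0.51 lower without wild-type library A and 1.69 lower without library B.

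Peg3 (ENSMUSG00000002265, chromosome 7, 6703892 to 6730431, minus strand), a zinc finger protein read from the paternal copy, was low throughout. It read 1.15 and 0.75 CPM in the wild type, 0.55 and 0.3 CPM in GLAD, 0.85 and 0.7 CPM in TIN and, for the double mutant, 2.10 and 1.60 CPM in normoxia. In hypoxia it read 0.75 and 0.7 CPM in GLAD, 0.35 and 0.899 CPM in TIN and 3.15 and 3.35 CPM in the double mutant. The double mutant was above all other groups at both oxygen levels, and the other groups overlapped along their order. Its difference of hypoxia from normoxia was 0.72 ± 0.25 on the log2 scale, a call that was lost without its library B in normoxia or either of its libraries in hypoxia, with 0.1 CPM added and without a filter. Outside the double mutant only wild-type library A reached 1 CPM, so Peg3 passed the filter through the double mutant, where it was highest. The GLAD and TIN libraries held 4 to 12 Peg3 reads each.

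Mest (ENSMUSG00000051855, chromosome 6, 30723547 to 30748465, plus strand), which encodes a hydrolase-like protein of mesoderm, was highest in the wild type, at 18.8 and 19.7 CPM. In normoxia it read 6.50 and 7.90 CPM in GLAD, 5.95 and 5.30 CPM in the double mutant and 2.70 and 2.80 CPM in TIN. In hypoxia it read 4.90 and 3.65 CPM in GLAD, 3.65 and 4.45 CPM in the double mutant and 2.80 and 4.60 CPM in TIN. The 3 mutants lay apart in normoxia, and their libraries overlapped in hypoxia. Mest fell with hypoxia by 0.67 ± 0.20 in GLAD, a call that was lost without library B of GLAD in normoxia or in hypoxia. The differences were -0.39 ± 0.20 in the double mutant and 0.35 ± 0.20 in TIN, neither past the threshold. Mest overlaps Copg2 on the opposite strand over 912 exon bases, and Copg2 read 41.3 to 68.9 CPM. The strand setting is not given, so it is not known how reads in the overlap entered or left the Mest count.

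Ndn (ENSMUSG00000033585, chromosome 7, 62346569 to 62350262, plus strand), the gene of the MAGE family protein necdin, had reads in 10 of 14 libraries and never above 0.25 CPM. Both wild-type libraries were at 0, and the highest value, 3 reads, was in double-mutant library B in hypoxia. Differences of Ndn were not detectable at this depth.

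With hypoxia, in GLAD, Dlk1, Plagl1 and H19 rose and Mest fell. In TIN, H19, Igf2, Cdkn1c and Dlk1 rose and Grb10 fell. In the double mutant, Dlk1, H19 and Peg3 rose and Grb10 fell. H19 and Dlk1 rose in all 3 mutants, a description of chosen genes. The H19 call in GLAD and the Dlk1 call in TIN were each lost in several refits, as given above. So were the Plagl1 and Mest calls in GLAD, the Cdkn1c call in TIN, and the Peg3 and Grb10 calls in the double mutant. Dlk1 reached 1 CPM only in GLAD in hypoxia and in the double mutant, and so passed the filter through those groups. No TIN library was above 0.6 CPM of Dlk1. Peg3 reached 1 CPM only in the double mutant and in wild-type library A, and so passed the filter through the double mutant. Of 16157 genes 48.1% were called in GLAD, 54.1% in TIN and 56.1% in the double mutant, so 4, 5 and 4 called of 8 are shares near the background, and nothing is read from them. The median log2 difference of the 8 genes was 0.25 in GLAD, 0.51 in TIN and 0.27 in the double mutant, against -0.04, -0.01 and -0.05 over all genes tested. The summed epithelial and myeloid markers were also higher in every hypoxia library than in every mutant normoxia library, the myeloid sum at 56.1 to 69.1 CPM against 24.1 to 39.6 CPM. Of all genes tested 21.9% were higher and 26.2% lower in GLAD, 25.5% and 28.6% in TIN, and 25.8% and 30.3% in the double mutant. Of the 4 muscle markers that passed the filter 3 were called higher in each mutant, with medians of 0.57, 1.44 and 0.69 in GLAD, TIN and the double mutant. Of the 4 neural markers 2, 3 and 1 were called higher, and of the 8 fibroblast markers 4, 3 and 6 were called lower and 1, 0 and 1 higher, with a median of -0.87 in the double mutant. The part of any of these in the differences was not tested.

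**Figure D3:**
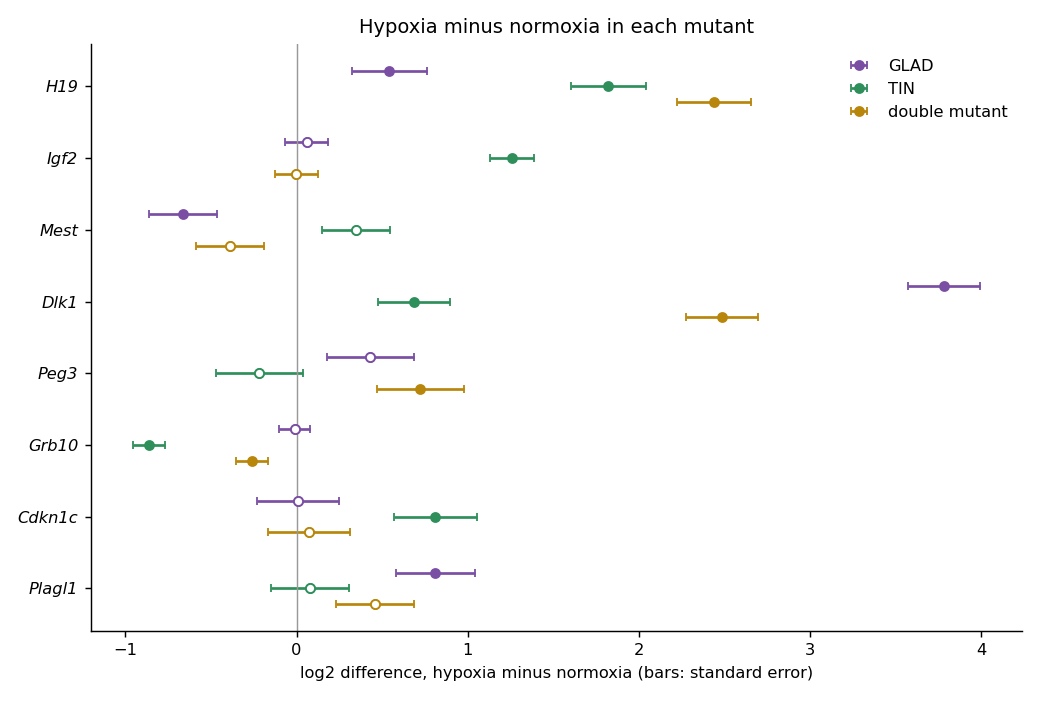
Log2 difference of hypoxia minus normoxia (horizontal axis) for the 8 genes in GLAD (purple), TIN (green) and the double mutant (gold); points are model estimates from 2 libraries a group, bars are standard errors, filled points passed the threshold of adjusted p under 0.05 in limma and open points did not. Dlk1 lies at 3.78, 0.68 and 2.48 in the 3 mutants, and Igf2 moves away from 0 only in TIN, at 1.26. The genes were chosen with these libraries in view, so filled and open points are a description.

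The log2 differences of hypoxia from normoxia were also set against each other between mutants, again as a description of chosen genes. For TIN minus GLAD the gap was -3.10 ± 0.30 for Dlk1, which rose far less in TIN, and -0.85 ± 0.13 for Grb10, which fell in TIN and stood at -0.01 in GLAD. It was 1.28 ± 0.31 for H19 and 1.20 ± 0.18 for Igf2, both of which rose in TIN, and 1.01 ± 0.28 for Mest, which fell in GLAD. For the double mutant minus TIN it was -1.26 ± 0.18 for Igf2 and 0.60 ± 0.13 for Grb10, which fell less in the double mutant. Mest stood at -0.73 ± 0.28 and Peg3 at 0.94 ± 0.36. Of the responses behind these gaps only that of Peg3 in the double mutant was called. Peg3 in TIN stood at -0.22 ± 0.25, from overlapping libraries. For Dlk1 it was 1.80 ± 0.30, but the read ratios of 6.00 (4.88 to 7.45) and 3.60 (1.13 to 15.0) do not separate the double mutant from TIN, and with 0.1 CPM added the 2 responses were 2.59 and 1.36. For the double mutant minus GLAD, H19 stood at 1.90 ± 0.31 and Dlk1 at -1.30 ± 0.30. The 3 pairs share groups and are not independent. Of all genes tested, 33.9%, 42.9% and 14.6% were called in these 3 comparisons in the order given, beside 5, 5 and 2 of the 8 genes, and nothing is read from those counts. The call of Mest in the first comparison was lost without GLAD library B in normoxia or hypoxia or TIN library B in hypoxia. The calls of Peg3 and Mest for the double mutant minus TIN were both lost without a filter and without any 1 of TIN library A or B in normoxia and double-mutant library B in normoxia or A in hypoxia. The Peg3 call was also lost with 0.1 CPM added, with CPM as deposited and without TIN library A, double-mutant library B or either GLAD library in hypoxia, and the Mest call without TIN library B in hypoxia or double-mutant library A in normoxia. Cdkn1c and Plagl1 passed in none, with Cdkn1c 0.80 ± 0.34 higher in TIN than in GLAD and Plagl1 0.73 ± 0.32 lower.

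In normoxia, the mutants shared a shift of several of these genes away from the wild type. H19 and Cdkn1c were higher, and Igf2 and Mest lower, in all 3 mutants. Mest was lower by 1.43 ± 0.20 in GLAD, 2.63 ± 0.20 in TIN and 1.73 ± 0.20 in the double mutant on the log2 scale. Cdkn1c was higher by 2.33 ± 0.24 in GLAD, 1.12 ± 0.24 in TIN and 0.84 ± 0.24 in the double mutant. The 3 comparisons use the same wild-type libraries, so a shift of those libraries would appear in all of them. Dlk1 rose in the double mutant, by 2.96 ± 0.21. Peg3 was 0.68 ± 0.25 higher in the double mutant and 0.68 ± 0.25 lower in GLAD. The first call was lost with 0.1 CPM added, without a filter and without double-mutant library A or wild-type library B, and the second without a filter, in the fit of the compared groups only and without GLAD library B or wild-type library A. Grb10 was 0.29 ± 0.09 higher in GLAD, a call lost without GLAD library B or wild-type library B, and Plagl1 fell in TIN. In the fit of the compared groups only, the calls of H19 in TIN and of Cdkn1c in the double mutant were lost, the latter also without double-mutant library B or wild-type library A. Of all genes tested 55.3% were called in GLAD, 60.3% in TIN and 56.8% in the double mutant, beside 6, 5 and 6 of the 8, and nothing is read from those counts. The summed fibroblast markers were higher in the wild type, as given above, and their part in these differences was not tested.

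**Figure D4:**
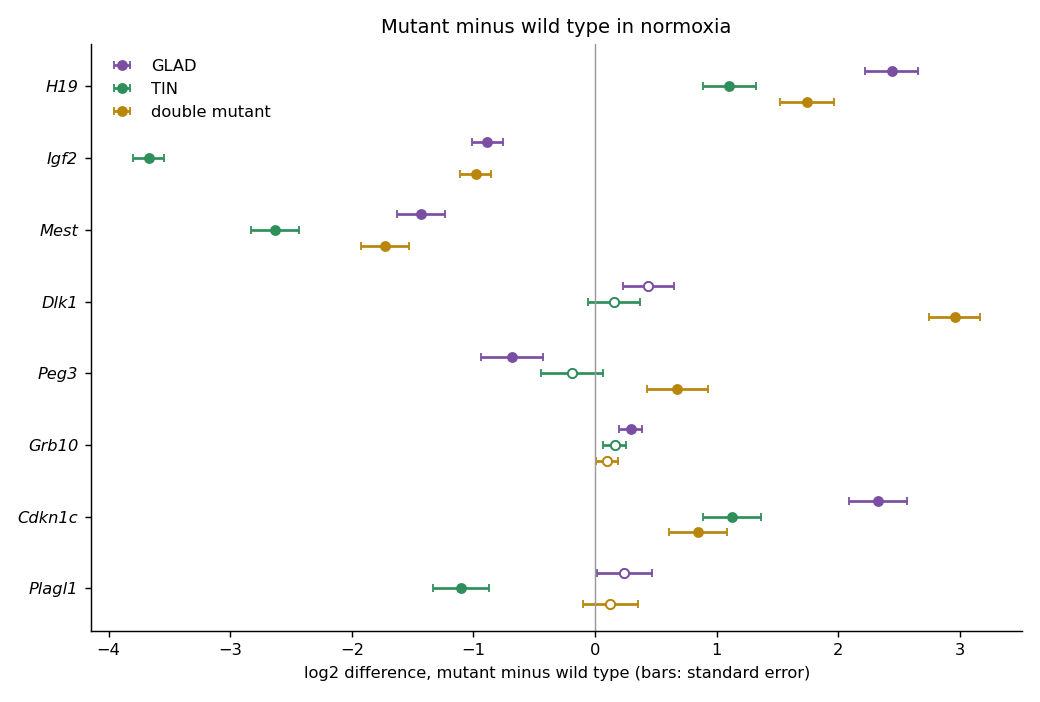
Log2 difference of each mutant minus the wild type in normoxia (horizontal axis) for the 8 genes, with GLAD in purple, TIN in green and the double mutant in gold; points are model estimates from 2 libraries a group, bars are standard errors, and open points did not pass adjusted p under 0.05 in limma. H19 and Cdkn1c lie above 0 and Igf2 and Mest below 0 in all 3 mutants, with Igf2 in TIN at -3.67. The genes were chosen with these libraries in view, so filled and open points are a description.

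Compared with one another in normoxia, TIN lay below GLAD in 5 genes and below the double mutant in 6. TIN was below GLAD in H19 by 1.34 ± 0.22, in Igf2 by 2.79 ± 0.13, in Plagl1 by 1.35 ± 0.23, in Cdkn1c by 1.20 ± 0.24 and in Mest by 1.20 ± 0.20 (log2), and above it in none of the genes called. The double mutant exceeded TIN in H19 by 0.64 ± 0.22, Igf2 by 2.69 ± 0.13, Plagl1 by 1.23 ± 0.23, Mest by 0.91 ± 0.20, Peg3 by 0.87 ± 0.25 and Dlk1 by 2.80 ± 0.21. The H19 and Peg3 calls were lost without double-mutant library A or TIN library B. Against GLAD, the double mutant was higher in Dlk1 by 2.52 ± 0.21 and Peg3 by 1.36 ± 0.25 and lower in Cdkn1c by 1.48 ± 0.24 and H19 by 0.70 ± 0.22, where the H19 call was lost without double-mutant library B or either GLAD library. With 0.1 CPM added, and without a filter, the H19 calls of both comparisons were lost. Its Igf2, Plagl1, Mest and Grb10 did not pass the threshold against GLAD, with differences of -0.10 ± 0.13, -0.12 ± 0.23, -0.30 ± 0.20 and -0.19 ± 0.09. Of all genes tested, 51.9% were called between TIN and GLAD, 48.4% between the double mutant and TIN and 35.7% between the double mutant and GLAD, beside 5, 6 and 4 of the 8. These shares hold both directions and are not split by direction here. Nothing is read from the counts or from their direction.

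Other imprinted genes were taken from a list of 59, of which 36 passed the filter and 5 (Ins2, Zfp264, Magel2, Klf14 and Kcnk9) were at 0 in every library. With hypoxia 7 rose and 10 fell in GLAD, 6 rose and 13 fell in TIN, and 6 rose and 12 fell in the double mutant, at list medians of -0.16, -0.12 and -0.16 on the log2 scale. Of all genes tested 21.9% rose and 26.2% fell in GLAD, 25.5% and 28.6% in TIN, and 25.8% and 30.3% in the double mutant. Dio3, the thyroid hormone deiodinase at the far end of the Dlk1 and Meg3 cluster, went the other way from Dlk1. It fell from 12.9 and 13.1 to 5.15 and 5.05 CPM in GLAD (-1.24 ± 0.22 log2). In the double mutant it fell from 5.80 in both libraries to 1.55 and 3.00 CPM (-1.20 ± 0.22). In TIN it read 6.05 CPM in both normoxia libraries and 4.00 and 2.95 CPM in hypoxia. The retrotransposon-derived Peg10 was high in TIN in normoxia, at 129 and 126 CPM, and fell to 45.6 and 48.3 CPM in hypoxia (-1.42 ± 0.11). The amino acid transporter Slc38a4 fell in GLAD and in TIN, by 0.65 ± 0.14 and 1.20 ± 0.14. In the double mutant it went from 29.4 and 27.4 to 13.6 and 16.9 CPM. Zrsr1 and Commd1 in GLAD, Casd1 and the ubiquitin ligase Ube3a in TIN, and Atp10a, Sgce and Zrsr1 in the double mutant also fell, by 0.49 to 0.98. Only the largest differences of each mutant are named. Zrsr1, Commd1, Casd1 and Atp10a had both hypoxia libraries below both normoxia libraries in every mutant. Sgce rose in TIN, from 23.5 and 27.8 to 34.1 and 34.6 CPM.

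Against the wild type in normoxia, 16 of these 36 were higher and 9 lower in GLAD, 19 and 9 in TIN, and 15 and 7 in the double mutant. Of all genes tested 26.7% were higher and 28.6% lower in GLAD, 31.4% and 28.9% in TIN, and 28.4% and 28.3% in the double mutant. Decorin (Dcn), a matrix proteoglycan that is also a fibroblast gene, read 12.8 and 13.2 CPM in the wild type, 403 and 408 CPM in GLAD, 34.1 and 37.2 CPM in TIN and 1327 and 1334 CPM in the double mutant. Its log2 difference from the wild type was 4.84 ± 0.07 in GLAD and 6.58 ± 0.07 in the double mutant. Slc38a4 and Peg10 were higher than the wild type in each mutant, most in TIN, by 3.62 ± 0.14 and 2.95 ± 0.11. Dio3 was higher in each mutant too, most in GLAD, by 2.41 ± 0.22. Sfmbt2, a polycomb-related gene, was nearly absent from TIN, at 0.25 and 0.999 CPM against 12.7 and 12.6 CPM in the wild type. Igf2r, the receptor that clears IGF2, was 1.14 ± 0.08 higher in the double mutant than in GLAD.

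All 17 genes listed for the insulin-like growth factor axis passed the filter. The ligand Igf1 fell with hypoxia in GLAD from 33.7 and 32.7 to 14.9 and 12.3 CPM (-1.23 ± 0.21). In the double mutant it fell from 14.6 and 13.1 to 5.15 and 5.00 CPM (-1.32 ± 0.21). Pappa, a protease that frees IGF from its binding proteins, fell in all 3 mutants, by 1.10 ± 0.22, 1.49 ± 0.22 and 0.90 ± 0.22 in GLAD, TIN and the double mutant. Htra1, a secreted protease, rose in all 3, by 0.94 ± 0.14, 0.99 ± 0.14 and 1.06 ± 0.14. The insulin receptor gene Insr rose in GLAD by 0.68 ± 0.11, and the receptor substrate Irs1 fell in TIN by 1.01 ± 0.08. Neither was particular to that mutant. In the double mutant Insr went from 46.1 and 50.7 to 65.3 and 64.1 CPM. Irs1 went there from 37.5 and 37.3 to 18.8 and 21.4 CPM. In all, 6 of 17 rose and 6 fell in GLAD, 5 and 5 in TIN, and 4 and 8 in the double mutant, beside 21.9% and 26.2% of all genes in GLAD, 25.5% and 28.6% in TIN, and 25.8% and 30.3% in the double mutant.

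Against the wild type in normoxia, the largest difference of this list in each mutant was in a gene of an IGF binding protein. Igfbp2 read 1073 and 1221 CPM in the wild type, 31.8 and 32.3 CPM in GLAD, 0.999 and 0.6 CPM in TIN and 14.8 and 14.2 CPM in the double mutant. Its differences from the wild type were -5.21 ± 0.14, -9.83 ± 0.14 and -6.29 ± 0.14. Igfbp3 went the other way, at 2.25 and 2.45 CPM in the wild type and 105 and 114 CPM in GLAD, 9.89 and 9.75 CPM in TIN and 141 and 139 CPM in the double mutant. Igfbp6 was 3.01 ± 0.16, 5.47 ± 0.16 and 3.87 ± 0.16 higher in GLAD, TIN and the double mutant. The family did not move one way, and Igfbp4, named after its values were seen, stood at -2.24, -2.07 and -1.90. Outside that family, the ligand Igf1 was 4.40 ± 0.21 higher in GLAD, from 1.55 and 0.65 CPM in the wild type. Htra1 was 5.05 ± 0.14 lower in TIN and 3.58 ± 0.14 lower in the double mutant. Igf2bp3 was 3.42 ± 0.25 lower in TIN. For these genes the normoxia libraries of the remaining mutants lay on the same side of the wild type. Against the wild type 5 genes of this list were higher and 9 lower in GLAD, 5 and 10 in TIN, and 6 and 7 in the double mutant. Over all genes the shares were 26.7% and 28.6% in GLAD, 31.4% and 28.9% in TIN, and 28.4% and 28.3% in the double mutant.

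Of 12 genes that write, read or erase the DNA methylation of imprints, 11 passed the filter. With hypoxia 7 rose and none fell in GLAD, 2 rose and 2 fell in TIN, and 6 rose and 2 fell in the double mutant, beside the shares of all genes of 21.9% and 26.2%, 25.5% and 28.6%, and 25.8% and 30.3%. Tet2, an enzyme that oxidises methylated cytosine, rose in all 3. It went from 23.3 and 21.6 to 97.2 and 82.1 CPM in GLAD (2.00 ± 0.09). In TIN it went from 26.6 and 26.8 to 45.9 and 41.3 CPM (0.71 ± 0.09). In the double mutant it went from 29.5 and 28.3 to 76.7 and 80.2 CPM (1.47 ± 0.09). The Tet2 response was 1.29 ± 0.13 smaller in TIN than in GLAD. Ctcf, which encodes the insulator protein of the H19 and Igf2 domain, fell in TIN by 0.56 ± 0.10 and in the double mutant by 0.32 ± 0.10. In GLAD it read 102 and 105 CPM in normoxia and 85.6 and 87.8 CPM in hypoxia, which was not called. Dnmt3a, a de novo methyltransferase, rose in GLAD by 0.24 ± 0.10 and in the double mutant by 0.60 ± 0.10 and fell in TIN by 0.30 ± 0.10. Zfp57, which protects imprints in the early embryo, was highest in TIN in normoxia, at 20.2 and 17.1 CPM, and lowest in the double mutant in hypoxia, at 2.50 and 3.20 CPM. No measurement of DNA methylation or of parental copies was analysed here.

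Genes with the most similar profile were found by Pearson r over the 7 group means of log2 values, as a description of 7 points that share libraries. The search covered the other tested genes that had a symbol and a mean of at least 5 CPM. H19 was closest to Paip2b (r = 0.99), Diras2 and Tollip, and Igf2 to Caskin2 (0.98), Cd74 and Rtp4. Dlk1 was closest to Rictor (0.99), Necap1 and Adarb1, and Grb10 to Atrnl1 (0.997), Dvl3 and Zkscan8. Cdkn1c was closest to Cops8 (0.98), Gnpda2 and Vill, and Plagl1 to Pmel (0.98), Npc1 and Xylt1. Peg3 was closest to Ercc8 (0.99), Dnajc27 and Eif4enif1, and Mest to Mnat1 (0.98), Shroom1 and Slc9a3r1. Among the 8 genes themselves, r was highest for Igf2 with Plagl1 (0.78) and with Mest (0.76), for H19 with Dlk1 (0.74) and for Dlk1 with Peg3 (0.72), and lowest for H19 with Mest (-0.59).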

How the data were processed

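The authors deposited 1 table of CPM for 14 libraries and 52636 genes. STAR and HTSeq, with the builds GRCm38.p4 and mm10, are named per the submitters' processing notes, and program versions, strand setting and annotation release are not given in the sources used here. Coordinates and exon lengths come from GENCODE M21 on GRCm38. The reads per library were estimated from the spacing of low CPM values, which a read count multiplied by a constant and rounded explained for 99.6 to 100% of low values. Read ratios use these estimates, so their 95% exact intervals cover counting error only.

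CPM were scaled by TMM factors and converted to log2 after 0.5 CPM was added. The 16157 genes that reached 1 CPM in 2 or more libraries were fitted with limma 3.58.1 in R 4.3.3, as 7 group means with 7 residual and 11.31 prior degrees of freedom. There were 12 comparisons, each with its own Benjamini-Hochberg adjustment of p-values, and genes were called under 0.05. The fit was tested on simulated data. Per-library values are the deposited CPM.

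The genes and lists were chosen with earlier results of these data known. Their differences are therefore a description, given with standard errors and no p-value. Of the other lists, named genes were drawn from up to 4 called genes with a mean of at least 5 CPM and the largest differences in each comparison. Not every such gene is named. Similar profiles were given as the 3 best of genes with a mean of at least 5 CPM. Alternatives were other added constants, filters and scalings, a fit of the compared groups only, the library letter as a block, and leaving out each library.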

Additional observations from a re-analysis of the deposited data

Results flagged for a closer look

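The interaction term of the limma fit, which sets the response to hypoxia of 1 mutant against that of another, passed the threshold for 12 combinations of gene and pair of mutants. The genes were chosen with these libraries in view, so this is a description and not an independent test. Values are differences of the log2 response, with standard errors, from 2 libraries in each group. The pairs share groups, so the 12 are not independent of each other.

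Dlk1 passed in each pair. It had entered the model only through GLAD in hypoxia and the double mutant, where it reached 1 CPM. Its response was -3.10 ± 0.30 in TIN relative to GLAD, -1.30 ± 0.30 in the double mutant relative to GLAD, and 1.80 ± 0.30 in the double mutant relative to TIN. The TIN libraries that enter these values held 1 to 7 Dlk1 reads, and the read ratios of the double mutant, 6.00 (4.88 to 7.45), and of TIN, 3.60 (1.13 to 15.0), do not separate these 2 mutants. For H19, TIN and the double mutant relative to GLAD were at 1.28 ± 0.31 and 1.90 ± 0.31.

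For Igf2, the response of TIN exceeded that of GLAD by 1.20 ± 0.18, and the double mutant relative to TIN was at -1.26 ± 0.18. For Grb10, TIN relative to GLAD was at -0.85 ± 0.13 and the double mutant relative to TIN at 0.60 ± 0.13. For Mest, the same 2 pairs were at 1.01 ± 0.28 and -0.73 ± 0.28. For Peg3, the double mutant relative to TIN was at 0.94 ± 0.36. Peg3 had passed the filter through the double mutant, where it was highest. The last Mest value and the Peg3 value both lost the call without any 1 of 4 libraries, TIN A or B in normoxia, double mutant B in normoxia or double mutant A in hypoxia, and each also in further refits named above. No group had the 4 samples needed to look for outlying libraries.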

How the results depend on the processing

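The number of the 8 genes called in each of the 12 comparisons stayed within 1.5 times in 92 of 96 refits with another setting. Without a filter on low levels it was 2 in place of 4 for hypoxia in GLAD (H19 and Plagl1 lost), 2 in place of 4 for hypoxia in the double mutant (Peg3 and Grb10 lost), and 3 in place of 5 for the double mutant relative to TIN in hypoxia response (Peg3 and Mest lost). With a filter of 5 CPM it was 2 in place of 4 between the double mutant and GLAD in normoxia, as Cdkn1c and Peg3 were no longer tested.

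Leaving out each library in turn gave 1 to 4 genes for hypoxia in GLAD, 3 to 5 in TIN and 2 to 5 in the double mutant. The hypoxia response gave 4 to 6 for TIN relative to GLAD, 2 for the double mutant relative to GLAD and 3 to 6 relative to TIN. Against the wild type it gave 4 to 6 for GLAD, 5 to 6 for TIN and 5 to 6 for the double mutant. In normoxia it gave 5 between TIN and GLAD, 3 to 5 between the double mutant and GLAD, and 4 to 6 between the double mutant and TIN. A group left with 1 library is assumed to vary like the others. The count for hypoxia in GLAD was 1 without GLAD B in normoxia and 2 without either GLAD library in hypoxia, in TIN 3 without TIN B in normoxia, and in the double mutant 2 without its library B in hypoxia. The genes lost in the comparisons are named beside their values above.

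No difference called in the main fit changed sign in a refit. There were 363 refits of single genes with other settings and 192 with a library left out, and these totals include differences that were not called. Those were not scored for a change of sign, and some changed it, as Plagl1 did below. The added constant sets the size for low genes. Dlk1 in GLAD with hypoxia was 4.70 with 0.1 CPM added and 3.16 with 1 CPM, and H19 in GLAD against the wild type was 3.96 and 1.78. Plagl1 in GLAD against the wild type was 0.83 without wild-type library A and -0.35 without library B, and in the double mutant 0.72 and -0.46. The letters A and B are not said to pair libraries, and the correlation of A minus B between groups was -0.0961 to 0.161. With the letter as a replicate block the count was 3 in place of 4 for hypoxia in GLAD (H19 lost) and was the same as without it in the other 11 comparisons. A count test (edgeR) was planned if whole reads could be recovered and was not run, because the values did not recover as whole reads by a single step. Depth limits Meg3 and Ndn, and the groups with 1 to 9 reads of H19, Dlk1 or Cdkn1c.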
